A study of Mus musculus with 2 samples.

Results

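The 10 genes described here, Cd3d, Cd3e, Cd3g, Thy1, Lck, Lat, Cd4, Cd8a, Il7r and Trat1, are markers of T cells, and their probes were read in RNA of B cells sorted from mouse lymph nodes. The genes were chosen with earlier results of these data known, and their probes by name. Every non-control probe carrying any of these symbols was taken, which gave 18 probes for 10 of the 27597 genes on the arrays. The 4 pools of RNA came from B cells of peripheral lymph nodes, 2 from wild-type C57BL/6J mice and 2 from Ccr7 knock-out mice of the strain B6.129P2(C)-Ccr7tm1Rfor/J. Each pool joined RNA of 3 sorted samples of 1 genotype, from 12 sorted samples in all, and the cells of both genotypes went from the sorter to RNA isolation without culture. The knock-out lacks the chemokine receptor Ccr7 in all cells of the animal, not in B cells alone. Neither the age of the mice nor the markers used for the sort was stated in the sources used here. Each of the 2 two-colour arrays held 1 wild-type and 1 knock-out pool, with the dyes swapped between them, so n = 2 arrays throughout.

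The T-cell receptor has no signalling part of its own and sits in the membrane with the CD3 chains, whose tails are phosphorylated by the kinase Lck when the receptor binds its ligand. Adaptors such as Lat then gather the enzymes of the cascade, and the coreceptors Cd4 and Cd8a bring Lck to the receptor. Mature B cells signal through a different receptor and its own chains, so the CD3 chains are commonly read as a sign of T-cell RNA in a B-cell sample. Several of the other markers are less strict: Lck is also made by some B cells, Cd4 and Cd8a by some dendritic cells, Thy1 by some stromal cells, and Il7r by other lymphoid cells.

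No member differed between the genotypes past the adjusted threshold. Of 9 members tested, limma called 0 at an adjusted p of 0.05, where it called 18 of 17685 genes (0.102%). At an unadjusted p below 0.05 in limma, 4 of the 9 were lower in the knock-out, against 5.97% of all genes. Of these 4, Il7r and Cd8a entered the test through their wild-type pools, where they were brighter. Thy1 and Cd3d, above background in all 4 pools, were measured at 1.72-fold and 1.51-fold below wild-type, lower on both arrays. Il7r and Cd8a were also lower on both arrays, but Il7r was above background in neither knock-out pool and Cd8a in 1 of them, so their folds have no exact value. Cd3e, Cd3g, Cd4, Lat and Lck had mean ratios between -0.03 and 0.16 on the log2 scale. Trat1 was not well above background in any pool and was not tested.

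Here a level is the log2 intensity of 1 dye after normalization, a ratio is the log2 of the knock-out intensity over the wild-type one on 1 array, and "well above background" is the scanner program's own flag. Levels of 1 probe can be set beside each other across pools, but not against those of another probe. An offset of 50 was added to each intensity, which draws the ratios of dim probes towards 0. Per probe, 7 of 18 were well above background in all 4 pools, 7 in none and 4 in some. Among those 4, 2 were above it in both wild-type pools and in neither knock-out pool, and 0 showed the reverse. The share of all probes with either pattern was not counted, so these 2 counts give no result about the members. On array 2 the flag was set at 68.8% of all gene spots in wild-type and at 58.4% in the knock-out. By pool, 10 and 11 of the 18 were above background in wild-type on arrays 1 and 2, and 8 and 7 in the knock-out.

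**Figure D1:**
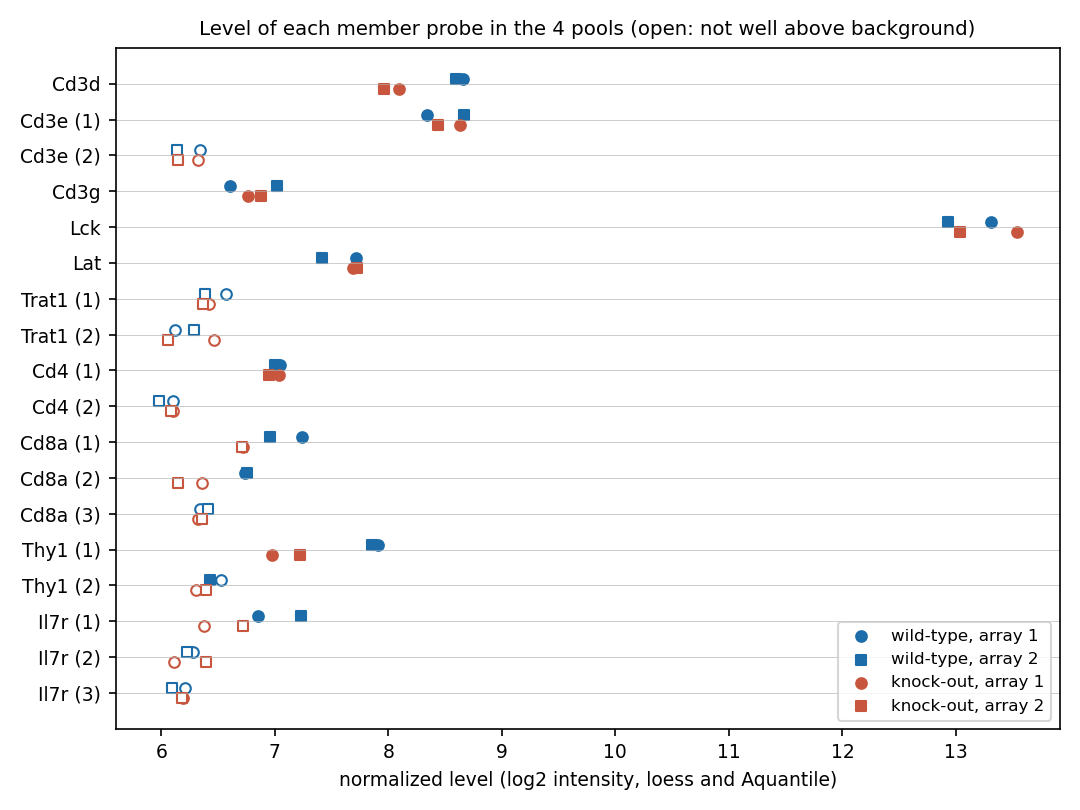
Level of each of the 18 member probes (log2 intensity, horizontal axis) in the 4 pools, with filled symbols where the probe was well above background and probes of a gene numbered from the one used in the fit. Within a line, the wild-type pools of Cd3d and Thy1 lie to the right of their knock-out pools, and those of Cd3e, Cd3g and Lck overlap with theirs.

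Across all genes, 63.1% and 68.8% of gene spots were well above background in wild-type on arrays 1 and 2, against 68.2% and 58.4% in the knock-out. For the B-cell label, 15 of 15 B-cell genes were well above background in all 4 pools. Cd79a had a mean log2 ratio of 0.17, and Ms4a1 had 1.75 on array 1 and -1.23 on array 2. Of the 15, 2 were lower on both arrays, 3 higher and 10 of opposite sign. Of all 17685 genes tested, 5308 were lower on both arrays, 4280 higher and 8097 of opposite sign. Pax5, a B-cell transcription factor named here after its values were seen, had -0.79 and -0.86, with an adjusted p of 0.141 in limma, and Cd72, a B-cell surface protein likewise named, had 0.52 and 0.55. These genes are bright and were partly read from a second scan at lower gain, which was used for 1958 and 1703 spots on arrays 1 and 2 and for no member probe. Ccr7, the targeted gene, had a log2 ratio of -1.11 on array 1 and -0.74 on array 2, or 1.90-fold lower, and limma gave it an adjusted p of 0.142. Whether its probe lies in the deleted stretch was not tested. The pools are the only replicates, so p-values measure the spread between 2 arrays, with the spread shared over all genes.

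The CD3 chains carry the motifs that Lck phosphorylates, and Cd3d, Cd3e and Cd3g lie together on chromosome 9, where their probes fell within 30.3 kb of the mm8 build. All 3 were above background in all 4 pools. Cd3d was read by 1 probe at chr9:44737083-44737314 on the plus strand. The 60 bases are spread over 232 bases of genome, so they are not contiguous there. Cd3e was read at chr9:44750166-44750225 on the minus strand. The first 30 bases of the Cd3d probe are shown because this chain had the lowest ratio of the complex.
Cd3d: gcagctgtatcagcctcttcgagatcgtga

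The level of Cd3d was 8.66 and 8.60 in wild-type on arrays 1 and 2, and 8.10 and 7.96 in the knock-out. Both wild-type pools were higher than both knock-out pools, with no overlap. Its spot intensity stood at 9.66 and 8.51 times the local background in wild-type and at 5.73 and 4.09 times in the knock-out, so this probe was read clearly in each pool. The ratio was -0.56 and -0.63 on the 2 arrays. Its mean was -0.60 ± 0.13 (SE, n = 2 arrays), with a 95% interval of -0.90 to -0.30. The adjusted p from limma was 0.240, with an unadjusted p of 0.0022.

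Cd3e, whose chain pairs with those of Cd3d and Cd3g, had levels of 8.34 and 8.66 in wild-type and 8.63 and 8.44 in the knock-out. The knock-out pool was the higher one on array 1 and the lower one on array 2, and the genotypes overlapped. The ratio was 0.29 and -0.23 on the 2 arrays, with a mean of 0.03 ± 0.16 (SE), a 95% interval of -0.35 to 0.40 and an adjusted p of 0.987 in limma. A second Cd3e probe, at chr9:44754896-44754955, was above background in no pool.

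Cd3g, the third chain, was read by 1 probe at chr9:44724628-44725212 on the minus strand. Its levels were 6.60 and 7.02 in wild-type and 6.76 and 6.88 in the knock-out, with the knock-out pools between the wild-type ones. The mean log2 ratio was 0.01 ± 0.14 (SE), with a 95% interval of -0.31 to 0.34 and an adjusted p of 0.995 in limma. The difference in ratio between the chains was not tested. The linear levels of the 3 chains were also summed, so a brighter probe weighs more. Their sum was 826 and 922 in wild-type and 778 and 714 in the knock-out. Both knock-out pools were below both wild-type pools. On array 1 that direction came from Cd3d, since Cd3e and Cd3g were higher in the knock-out there. Summed over the 9 members tested, without Trat1, the level was 11851 and 9550 in wild-type and 13312 and 9811 in the knock-out. This sum was higher in the knock-out on each array with the genotypes overlapping, and Lck makes up most of it. In RNA of a whole sorted sample, fewer T cells and less of this RNA per cell cannot be told apart.

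Lck, the kinase that starts signalling at the T-cell receptor, was read at chr4:129050906-129050965 on the minus strand. Its spot intensity was 11821 and 9430 in wild-type and 16305 and 4383 in the knock-out, and the lowest of these was 85.9 times its local background. After normalization the levels were 13.31 and 12.93 in wild-type and 13.54 and 13.04 in the knock-out. The knock-out pool was slightly the higher one on each array, and the genotypes overlapped across arrays. The ratio was 0.22 and 0.10, with a mean of 0.16 ± 0.13 (SE), a 95% interval of -0.14 to 0.47 and an adjusted p of 0.812 in limma. Under scaling by each array's median in place of loess the Lck ratio was -0.10, where the median of all genes was -0.17, so Lck was still above that median. With no normalization within arrays it was -0.32, against a median of -0.39.

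Lat, the membrane adaptor that Zap70 phosphorylates, was read at chr7:126155353-126155412 on the minus strand, with levels of 7.72 and 7.42 in wild-type and 7.69 and 7.72 in the knock-out. The pools overlapped, with the wild-type pool of array 2 the lowest. The mean log2 ratio was 0.14 ± 0.14 (SE), from -0.03 on array 1 and 0.31 on array 2, with a 95% interval of -0.20 to 0.47. The adjusted p from limma was 0.886.

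Trat1, an adaptor that helps to hold the receptor complex together, had 2 probes. The one at chr16:48651536-48651559 had levels of 6.57 and 6.39 in wild-type and 6.42 and 6.36 in the knock-out. The one at chr16:48654474-48654533 had 6.12 and 6.29 in wild-type and 6.47 and 6.06 in the knock-out. Neither was well above background in any pool, so no direction can be given for Trat1.

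The coreceptors Cd4 and Cd8a mark the helper and the cytotoxic lineage. The Cd4 probe used in the fit lies at chr6:124833307-124833366 on the minus strand, and its levels were 7.04 and 7.00 in wild-type and 7.04 and 6.95 in the knock-out. All 4 pools lay within a narrow range and the genotypes overlapped. The mean log2 ratio was -0.03 ± 0.13 (SE), with a 95% interval of -0.33 to 0.27 and an adjusted p of 0.987 in limma. A second probe at chr6:124831002-124831060 was above background in no pool.

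Cd8a had 3 probes on the plus strand of chromosome 6, which are shown by their first 30 bases because they were not read equally well. They are given from the most 5′ to the most 3′.
Cd8a at chr6:71303400-71303459: tctcaccctgaacaagttcagcaaggaaaa
Cd8a at chr6:71306845-71306904: ttaggtatgtgtctttagtatagcatgctt
Cd8a at chr6:71308426-71308485: cctgaaggaactaagagtcacccatggtcc

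The most 3′ Cd8a probe had levels of 7.24 and 6.96 in wild-type and 6.72 and 6.71 in the knock-out, so both wild-type pools were higher. It was above background in both wild-type pools and in the knock-out pool of array 1, but not in that of array 2, and it entered the test through the wild-type pools. The ratio was -0.52 and -0.25, with a mean of -0.39 ± 0.14 (SE) and a 95% interval of -0.71 to -0.07, and the adjusted p from limma was 0.449. The middle probe was above background in wild-type alone, with levels of 6.74 and 6.75, against measured values of 6.36 and 6.15 in the knock-out, and ratios of -0.38 and -0.61. Its wild-type level was at least 1.24-fold higher by a bound that leaves out the spread between arrays. On each array it was set against the measured knock-out value or the dimmest signal passing the background flag in that channel, whichever was brighter. The most 5′ probe was above background in no pool, with ratios of -0.01 and -0.05.

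The fitted Cd4 and Cd8a probes were each printed at 10 spots, which shows the error of reading 1 hybridisation. For Cd8a, 10 of 10 usable spots on array 1 gave a ratio below 0, with a mean of -0.52 and an SD of 0.0731. On array 2, 8 of 8 usable spots did so, averaging -0.25 with an SD of 0.166 and a range of -0.51 to -0.02. Knock-out signal cleared the background flag at 3 of these spots. For Cd4, 5 of 8 spots were below 0 on array 1 and 6 of 8 on the other array, with SDs of 0.0663 and 0.099. The median SD over the 245 probes printed at 10 spots was 0.0682 on array 1 and 0.0758 on array 2. Cd8a on array 2 was thus read with more than the usual spread, and Cd4 spots scattered around 0. Spots on 1 array share the same RNA and are not replicates.

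**Figure D2:**
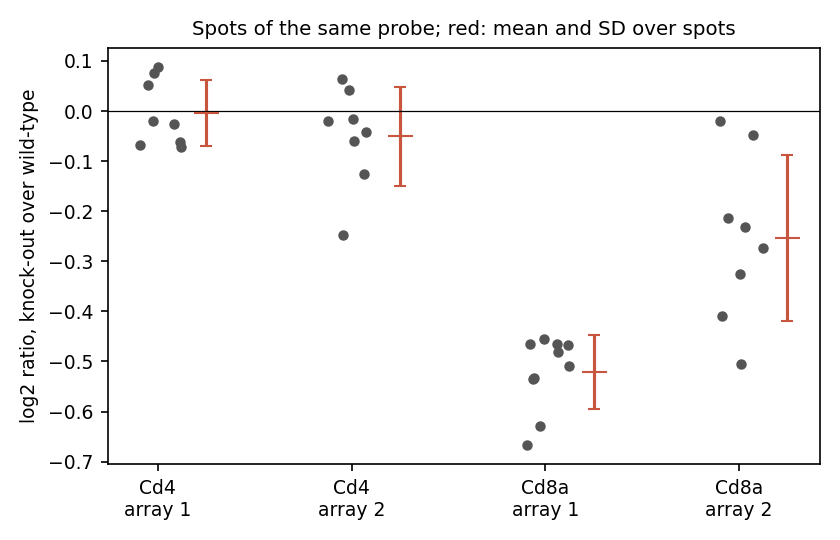
Log2 ratio, knock-out to wild-type (vertical axis), at each usable spot of the Cd4 and Cd8a probes printed at 10 positions, by array. The Cd8a spots all lie below 0 on both arrays and reach up to -0.02 on array 2, while the Cd4 spots fall on both sides of 0.

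Thy1, a small surface protein carried by mouse T cells, had the lowest ratio among the members. It had 2 probes on the plus strand, with 1223 bases between their 3′ ends, and the one used in the fit is the more 3′. The 60 bases of the other probe are spread over 446 bases of genome, so they are not contiguous there. A stretch of each is shown because both hold AATAAA, the letters of the poly(A) signal, given in capitals, yet they were not read equally well.
Thy1 at chr9:43799512-43799571: agaaaactgcacAATAAAaccaagcctctg
Thy1 at chr9:43797903-43798348: cccatgagctccAATAAAagtatcagtgtg

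AATAAA was present in 4.78% of the 41174 probes of 60 bases and its reverse complement TTTATT in 4.25%. Among the 18 member probes, 2 held AATAAA, both of Thy1, and 0 held TTTATT. A match is a description of the letters and does not show a used poly(A) site.

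The level of Thy1 was 7.91 and 7.86 in wild-type and 6.98 and 7.22 in the knock-out. Both wild-type pools were higher than both knock-out pools, by more than the arrays differed within a genotype. The intensity was 5.88 and 4.69 times the local background in wild-type and 2.76 and 2.82 times in the knock-out, and all 4 pools were above background. The ratio was -0.93 and -0.63, with a mean of -0.78 ± 0.14 (SE), a 95% interval of -1.11 to -0.46, an unadjusted p of 0.00072 and an adjusted p of 0.164 in limma. In limma Thy1 passed the threshold under 2 other settings. Its adjusted p was 0.0257 when the variance prior followed the intensity and was made robust, and 0.0271 without probes scaled from the low-gain scan. Over all settings tried with a test it ran from 0.0257 to 1.00, the latter with median centring in place of loess. The second probe was above background in the wild-type pool of array 2 alone, and its ratios were -0.22 and -0.03.

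Il7r, the receptor chain through which naive T cells receive the survival signal IL-7, had 3 probes on the minus strand of chromosome 15. Their first 30 bases are shown, from the most 3′ to the most 5′, because the first alone was read above background.
Il7r at chr15:9450946-9451005: atcaatcaactatgtttggatccagggaat
Il7r at chr15:9455913-9455972: cccacagagaaaactacgaccaaaagcaat
Il7r at chr15:9457540-9457599: tcaatcacgttcacaaaataagtatcatct

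The most 3′ Il7r probe had levels of 6.85 and 7.23 in wild-type and 6.37 and 6.72 in the knock-out. Both knock-out pools were the lower ones and were not above background, so the gene entered the test through wild-type and its fold is a bound. Both knock-out values were brighter than the dimmest passing signal of their channel, so the bound is set against them. It equals the measured fold, 1.41-fold higher in wild-type. The bound concerns the background flag alone and leaves out the spread between arrays, so smaller folds lie within the 95% interval. The measured ratio was -0.48 and -0.51, with a mean of -0.49 ± 0.13 (SE), a 95% interval of -0.79 to -0.19 and an adjusted p of 0.302 in limma. The other two probes were above background in no pool. The second had ratios of -0.16 and 0.17.

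In 6 member genes with several probes, 5 had a probe that could be tested. In 4 of these, Cd3e, Cd8a, Il7r and Thy1, the most 3′ probe was the one above background in the most pools. In Cd4 the tested probe lay 2305 bases upstream of the most 3′ one. Exon and UTR boundaries on this build were not used here.

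Of the 9 members tested, 5 (55.6%) were lower in the knock-out pool on both arrays, against 30.0% of all genes tested. The 5 were Thy1, Cd3d, Il7r, Cd8a and Cd4, the last of them at 0.00 and -0.05, and Cd4 had a mean of 0.03 with median centring. At an unadjusted p below 0.05 in limma, 4 of 9 were lower, against 5.97% of all genes. These counts support nothing by themselves, since Il7r and Cd8a were tested through their wild-type pools, where they were brighter. The members were also chosen with earlier results of these data known. The median log2 ratio of the 9 was -0.03, with -0.03 on array 1 and -0.23 on array 2, and that of all genes was -0.01. Lck was higher on both arrays with loess though not with median centring, and Cd3e, Cd3g and Lat were higher on 1 and lower on the other. On the scanner program's own scale, without offset, the mean log2 ratios of Thy1, Il7r, Cd8a and Cd3d were -1.51, -1.77, -1.03 and -0.75. The values of Il7r and Cd8a are not exact, since Il7r was above background in neither knock-out pool and Cd8a in 1 of them. In limma 0 of 9 members passed with that scale.

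**Figure D3:**
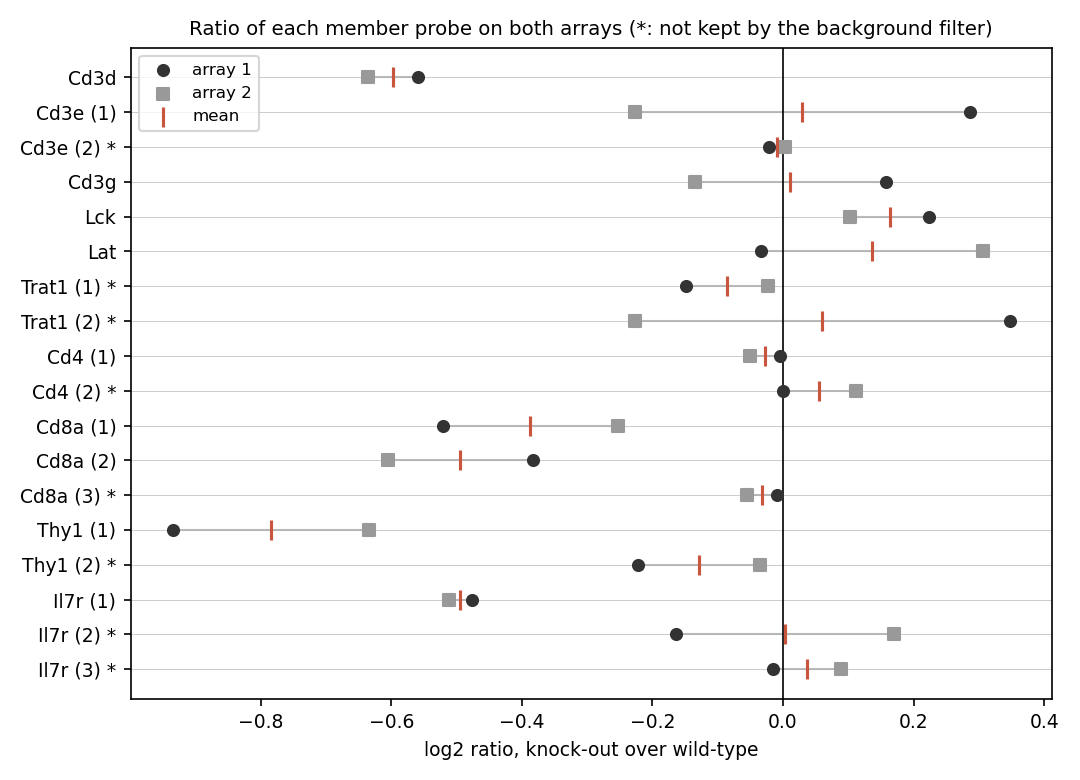
Log2 ratio (knock-out to wild-type, horizontal axis) of each member probe, with a circle for array 1, a square for array 2, a red tick at their mean and a star at probes not kept by the filter. Both arrays lie below -0.2 for the fitted probes of Thy1, Cd3d, Il7r and Cd8a, and the fitted probes of Cd3e, Cd3g and Lat lie on both sides of 0.

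**Figure D4:**
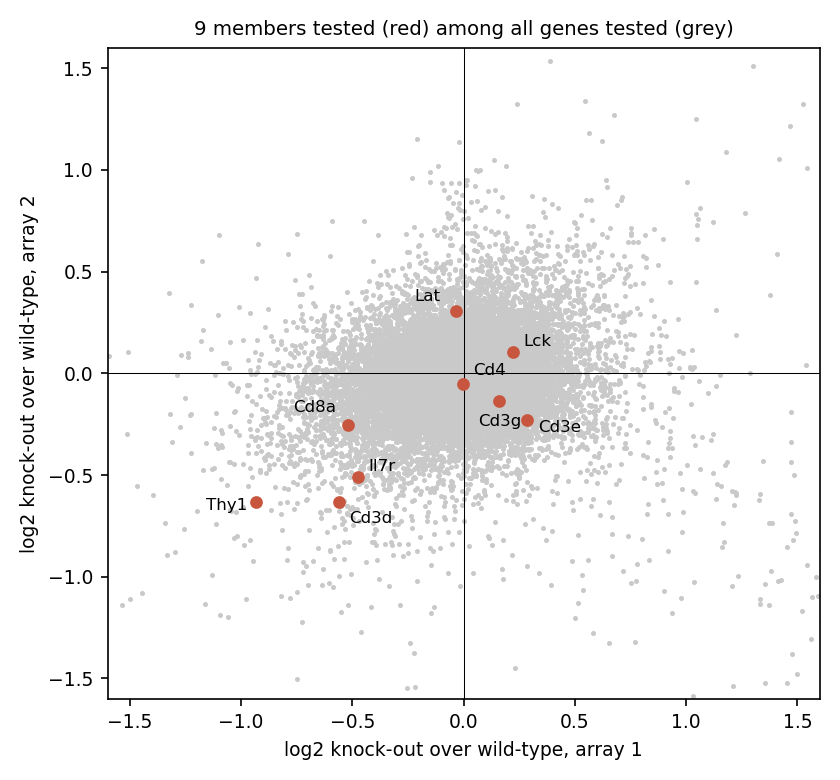
Log2 ratio on array 1 (horizontal axis) against array 2 (vertical axis), with all genes tested in grey and the members named; 54 genes lie outside the axes. Thy1, Cd3d, Il7r and Cd8a lie in the lower left of the plot, and the other members lie near the centre.

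A wider set of 42 T-cell genes outside the members gave 28 that could be tested, of which limma called 0. The lowest adjusted p was 0.240, and at an unadjusted p below 0.05, 6 were lower and 1 was higher. Among all genes, 5.97% were lower at that p, and 557 of 17685 were higher. On both arrays 15 of 28 (53.6%) were lower, against 30.0% of all genes, 4 were higher and 9 differed in sign, with a median log2 ratio of -0.20. As for the members, these counts support nothing by themselves: Tcf7, Bcl11b and Dapl1, among the 6, passed the filter through their wild-type pools alone. The set is also not strict, since Cd5 is made by some B cells too. How much of the RNA of these 28 genes came from the B cells themselves was not tested. No probe of Cd247, Ubash3a, Themis, Sh2d1a, Cd28, Ctla4, Cd40lg, Gata3, Foxp3 or Cd96 passed the filter on dim probes, and the receptor constant genes Trac, Trbc1 and Trbc2 matched no probe by name.

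Among genes of receptor signalling, costimulation and adhesion, 15 of 22 were tested, with 7 lower on both arrays, 1 higher and a median of -0.19. Grap2, an adaptor that joins Lat to its partners, had the lowest value at -0.44, from -0.54 and -0.33, with an adjusted p of 0.362 in limma. Cd5, an inhibitory surface protein of T cells and some B cells, had -0.36, from 0.00 and -0.73. Skap1, an adaptor of T-cell adhesion, had the highest at 0.27.

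Among T-cell transcription factors, 7 of 10 were tested, with 4 lower on both arrays, 1 higher and a median of -0.28. Lef1 and Tcf7, a pair of related factors of T-cell development, each had a mean of -0.48, Lef1 from -0.11 and -0.86 and Tcf7 from -0.30 and -0.65. Runx3, a factor of the cytotoxic lineage, had the highest at 0.31. Among other surface and effector genes, 6 were tested, with 4 lower on both arrays and 2 higher. Ccl5, a chemokine of memory T cells and natural killer cells, had -0.12 on array 1 and -2.67 on array 2, so its mean of -1.39 rests on array 2. Dapl1 had -0.55 and -0.63, close to the values of Cd3d, with an adjusted p of 0.240 in limma, and Ms4a4b had the highest at 0.40.

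Natural killer and innate lymphoid genes were read as the nearest other cell type. Of 15 listed, 10 were tested, with 3 lower on both arrays, 4 higher and a median log2 ratio of 0.06. Of all 17685 genes tested, 5308 were lower on both arrays and 4280 higher. Klrd1, an inhibitory receptor chain of natural killer cells, had -0.57, Tyrobp, their signalling adaptor, had -0.30, and Tbx21, a transcription factor of these cells and of some T cells, had 0.57. Of the 10, limma called 0 after adjustment, and at an unadjusted p below 0.05, 2 were lower and 3 higher. At that p, 1056 of the 17685 genes were lower and 557 higher. Their summed linear level was 8202 and 8655 in wild-type and 7854 and 8721 in the knock-out, so the genotypes overlapped. Ncr1, Eomes, Gzma, Gzmb and Xcl1 had no probe that passed. Myeloid and dendritic genes had a median of 0.02 over 9 tested, stromal and endothelial genes 0.07 over 8, and B-cell genes 0.20 over 15. The summed level of the 15 B-cell genes was 630092 and 957812 in wild-type and 1054679 and 714924 in the knock-out, higher in the Cy5 channel on each array. Their part in the values of the members was not tested.

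**Figure D5:**
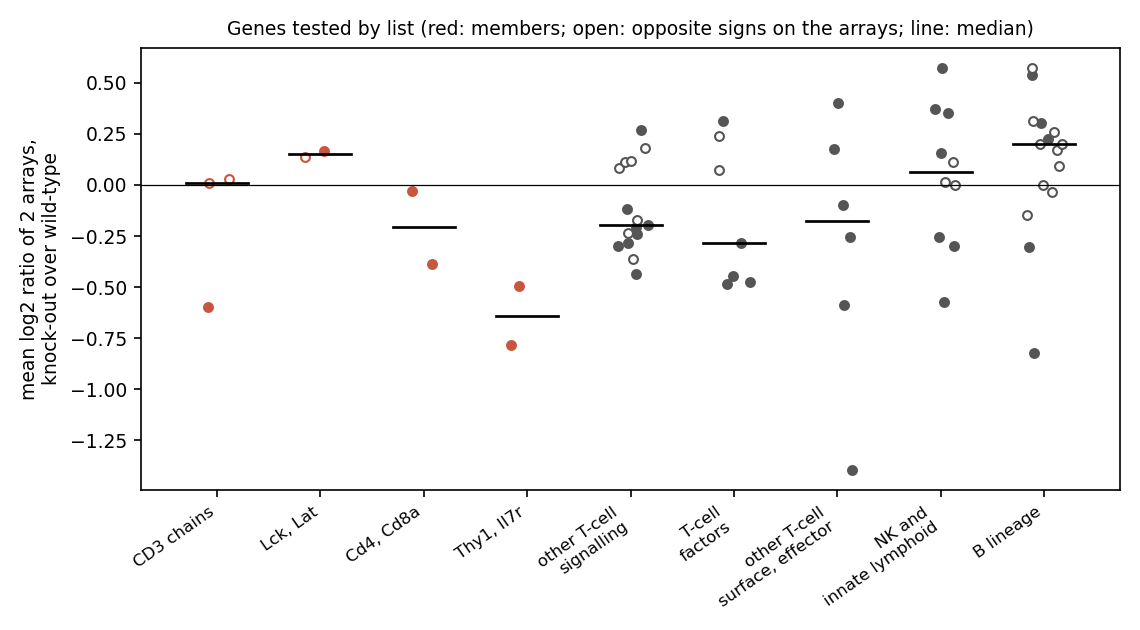
Mean log2 ratio (knock-out to wild-type, vertical axis) of each tested gene, with members in red, genes of other lists in grey, open points where the 2 arrays differed in sign and a line at each median. Thy1 lies lowest among the members at -0.78, Ccl5 lies lowest in the plot at -1.39, and the natural killer and B-cell points fall on both sides of 0.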

How the data were processed

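The deposited spot intensity values were read with Agilent Feature Extraction 9.5.3.1, per the submitters' processing notes. Probe positions are on mm8, per the file headers. The files also hold a background-subtracted, dye-normalized log10 ratio, per the file headers. The authors deposited a table of log2 ratios as well, which equals that ratio, put on the log2 scale with the knock-out in the numerator, within 0.001 at 42512 and 42515 of 43379 spots on arrays 1 and 2. The other 867 and 864 spots were all scaled from the low-gain scan. Its columns have a median of 0, and it was used as 1 of the alternatives. The flags for outliers and for signal well above background were used as deposited by the authors.

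From the spot means and median local backgrounds, normexp (offset 50) and loess within arrays (span 0.3, 4 iterations, control spots at weight 0) were run in limma 3.58.1 (R 4.3.3). Outlier spots were left out and spots of a probe were averaged. A probe counted as above background where at least 50% of its usable spots were, and was kept where this held in wild-type on both arrays or in the knock-out on both. The brightest kept probe stood for its gene. Ratios were turned to knock-out over wild-type and tested with lmFit and eBayes, two-sided, with Benjamini-Hochberg adjustment over 17685 genes at 0.05. The fit had 1 residual degree of freedom and 6.19 from the prior. Levels are channel values after loess and Aquantile. The script was tested on simulated data. Of 41174 probes, 24375 were named by accession, 6301 by symbol, 2426 by synonym and 8072 by the file's own name.

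The members and lists were chosen with earlier results of these data known, so no list was tested. Named were all 10 members, Ccr7, Cd79a and Ms4a1, and from each list of other T-cell and natural killer genes those with the 2 lowest and the highest mean ratio, plus genes with no usable probe; some items are not reported here. The number of arrays limits the precision.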

Additional observations from a re-analysis of the deposited data

How the results depend on the processing

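The 18 genes called (12 higher, 6 lower) were not stable in number. The count was 0 with no background subtraction, with the log ratio from the scanner program, with no normalization within arrays, with the mean of a gene's probes, and with the deposited table. It was 4 with median centring (3 higher, 1 lower), 9 with a filter for signal above background in all 4 pools (9 higher, 0 lower), 73 with a robust prior that follows intensity (26 higher, 47 lower) and 131 without probes scaled from the low-gain scan (45 higher, 86 lower). Ignoring the pairing of the pools on an array (no replicate block) also gave 0, and the members' median stayed at -0.03. The cause was not tested.

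The members' median of -0.03 became -0.33 with no normalization within arrays, where the median of all genes was -0.39, and 0.011 where both genotypes had to pass the background flag. That filter left 7 members, without Il7r and Cd8a, of which 3 were lower on both arrays. The share of all genes lower on both arrays under that filter is not given here. Leaving out an array gave a median of -0.23 to -0.034, and 7 or 6 of 9 members lower on the array that was left, with no test. The medians of all genes were below 0 as well, at -0.005 on array 1 and -0.02 on array 2. The share of all genes lower on 1 array is not given here, so these counts give no result about the members. Directions turned with median centring for Cd3e (-0.11), Cd4 (0.032) and Lck (-0.10). They turned with no normalization within arrays for Cd3e (-0.33), Cd3g (-0.16), Lat (-0.12) and Lck (-0.32), all at or above the median of all genes there. With 1 array left out, Cd3e ran from -0.23 to 0.29, Cd3g from -0.13 to 0.16 and Lat from -0.034 to 0.31. Thy1, Cd3d, Il7r and Cd8a were below 0 under each alternative that gave a value. With median centring, where the median of all genes was -0.17, they ran from -0.82 (Thy1) to -0.30 (Cd8a). With no normalization within arrays, where that median was -0.39, they ran from -1.04 (Thy1) to -0.52 (Cd8a). Signal over background limits the dim probes, among them those of Il7r, Cd8a, Cd3g and Trat1.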
